A study of Homo sapiens with 4 samples.

Results

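Homologous recombination, Fanconi, checkpoint and mismatch repair genes were followed in a pancreatic cancer line of human origin, MIA-PaCa2, with and without acquired resistance to AMG510. The 35 genes were taken from a list of names that was chosen with earlier results of these data known. All 35 symbols matched an ID among the 57773 in the count tables. AMG510 (sotorasib) is a small-molecule cancer drug. The untreated group held 2 libraries from populations grown without the drug. The resistant group held 2 libraries from separate populations of the same line, kept for 2 months in rising doses that ended at 5 µM. No clone, sorting step or genetic change is named for either group, and the labels do not say whether the drug was in the medium at harvest. For resistant replicate 2 the drug is written AMG511 in 1 label and AMG510 in the title.

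Homologous recombination repairs a broken chromosome by copying the sister strand, so it works mainly while DNA is being replicated and before mitosis. Broken ends are trimmed to single strands, the BRCA1, PALB2 and BRCA2 proteins prepare these strands for pairing, and proteins such as RAD51C, XRCC3 and RAD54L help them to invade the intact copy. The Fanconi pathway opens crosslinks between DNA strands by attaching ubiquitin to FANCD2 and FANCI, and the kinases ATM and ATR halt the cell cycle through CHEK2 and CHEK1 while repair proceeds.

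Expected counts summed to between 30146559 and 38052558 per library, and 3 counts, the level that a count of 0 still allows, corresponded to between 0.0801 and 0.104 CPM. CPM is the read count scaled to the size of the library. Of 6 epithelial markers, KRT8 and KRT18 were at or above 957 CPM and KRT19 at or above 133 CPM in every library, but EPCAM stayed at or below 2.09, CDH1 at or below 1.21 and KRT7 at or below 0.401 CPM. KRT8 and KRT18 were themselves called lower in the resistant libraries (log2 fold changes −1.23 and −0.88, edgeR adjusted p = 0.00268 and 0.00692). The acinar genes PRSS1, AMY2A and PTF1A had 0 counts in all 4 libraries, as did CDKN2A, a locus known as deleted in this line. Of the other pancreatic lineage genes only SOX9 was well above 1 CPM. It stood at 159 and 136 CPM in the untreated and 137 and 108 CPM in the resistant libraries and was not called. PDX1 was called lower, from 1.06 and 1.15 to 0.207 and 0.266 CPM (log2 fold change −2.20, edgeR adjusted p = 0.0146). GATA6 stayed at or below 0.711 CPM and CPA1 at or below 0.0296 CPM, under the level of 3 counts. Over 1 CPM in any library were 2 of 5 immune, 1 of 3 endothelial and 2 of 5 fibroblast markers. Immune markers summed to 14.9 and 23.9 CPM in the untreated and 34.3 and 9.68 CPM in the resistant libraries, with PTPRC at or below 0.134 CPM and CD68 as high as 33.7 CPM in resistant replicate 1. LYZ stood at 4.55 and 10.07 CPM in the untreated and 0.414 and 0.237 CPM in the resistant libraries and was called lower (log2 fold change −4.49, edgeR adjusted p = 2.82e-04). Endothelial markers summed to 8.45 and 4.22 against 5.87 and 1.04 CPM, and fibroblast markers to 1.84 and 2.99 against 8.28 and 5.45 CPM. The fibroblast marker PDGFRB was called higher, from 0.0542 and 0.187 to 5.07 and 2.16 CPM (log2 fold change 4.86, edgeR adjusted p = 7.69e-04). Their part in the differences below was not tested. The design names 2 populations per group without saying how they were kept apart, so p-values speak only of variation among these 4 libraries. Exact permutation of 2 against 2 libraries cannot go below p = 0.33, and tests on single genes therefore rest on edgeR's quasi-likelihood fit over all 16090 tested genes, with Benjamini-Hochberg adjustment and a threshold of 0.05.

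Most of the repair genes had less RNA in the resistant cells. All 35 were tested, and 23 fell, 1 rose and 11 did not pass. Among all tested genes 17.4% were called lower and 16.6% higher. As the list was chosen with earlier results known, these counts describe it and are no test of it. The median log2 fold change was −0.86 for the 35 genes and −0.01 for all tested genes. Of the 23 genes, 14 fell at least 2-fold, a size that 7.55% of all tested genes reached. Both resistant values lay below both untreated values in 26 of the 35 genes (36.3% of all tested genes) and above them in 2 (34.6% of all tested genes). The summed level of the 35 genes was 2066 and 1924 CPM in the untreated libraries and 1136 and 1458 CPM in the resistant ones. In bulk RNA, fewer cells in the replicating phases and less RNA of these genes per cell cannot be told apart.

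The count of calls depended on single libraries. Without untreated replicate 1 it was 9 lower and 0 higher, while 7.87% of all genes then tested were called lower and 8.99% higher. Without resistant replicate 1 it was 16 lower and 2 higher, beside 12.1% and 13.0% of all genes. Without untreated replicate 2 it was 19 lower and 1 higher (ATM), beside 14.3% in each direction. Without resistant replicate 2 it was 24 lower and 0 higher, beside 14.9% and 15.2%. The median log2 fold change stayed between −1.06 and −0.71 in these 4 fits. The 9 genes called lower in each of them were EXO1, BLM, PALB2, RAD51C, RAD54L, FANCA, FANCD2, FANCI and PARP1.

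**Figure D1:**
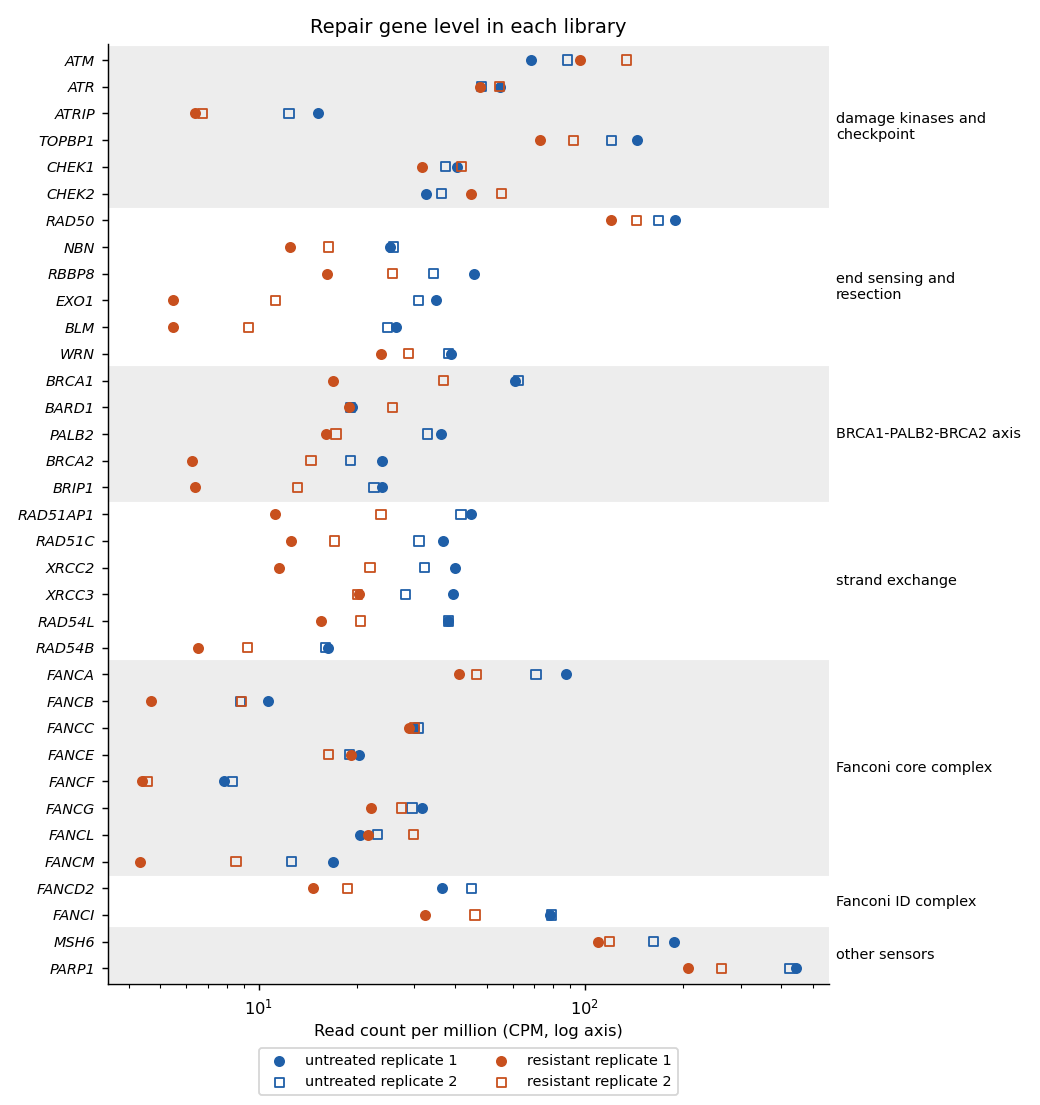
Level of each of the 35 repair genes in the 4 libraries, in CPM on a log axis, with genes grouped by role. Blue marks are untreated and orange marks resistant libraries, circles replicate 1 and open squares replicate 2. Orange marks lie left of blue ones in 26 genes, among them all 6 strand exchange genes, and right of them in ATM and CHEK2.

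**Figure D2:**
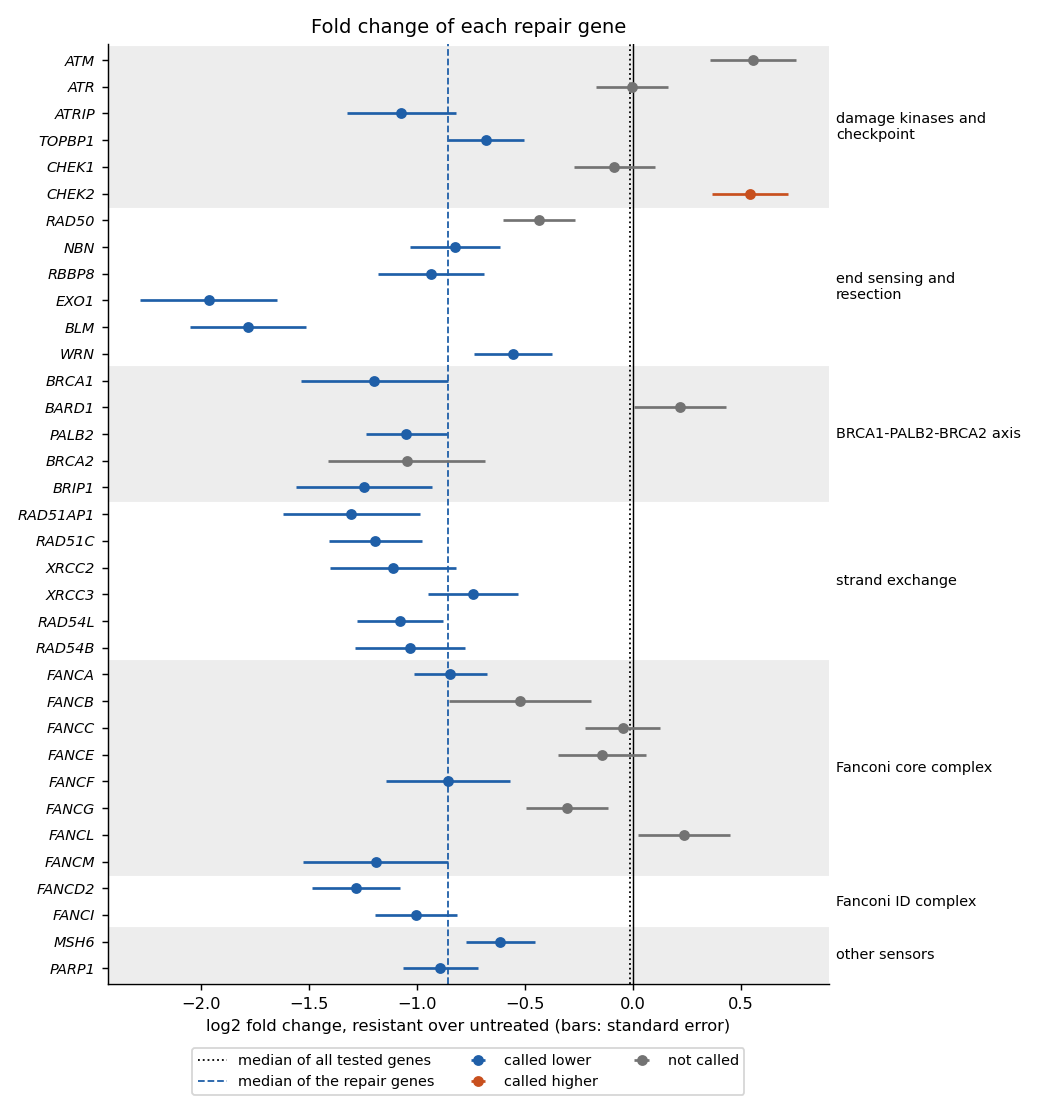
Log2 fold change of each repair gene, resistant over untreated, with its standard error as a bar. Blue points were called lower, the orange point (CHEK2) higher, and grey points were not called; the dashed line marks the median of the 35 genes at −0.86 and the dotted line that of all tested genes at −0.01.

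Strand exchange genes, which act when the trimmed end invades the intact DNA copy, moved together: all 6 fell, 5 of them at least 2-fold, with a median log2 fold change of −1.09. Over all tested genes 17.4% were called lower, and 7.55% were called and at least 2-fold lower. RAD51AP1 (ENSG00000111247, chromosome 12), which stimulates strand invasion, stood at 44.7 and 41.7 CPM in untreated replicates 1 and 2 and at 11.2 and 23.7 CPM in resistant replicates 1 and 2 (log2 ratio −1.30 ± 0.32, adjusted p = 0.0165, where the log2 ratio is resistant over untreated and ± gives its standard error, SE). The groups did not overlap, but resistant replicate 1 lay far below resistant replicate 2. RAD51C (ENSG00000108384, chromosome 17), found in both complexes that help strand exchange, stood at 36.9 and 31.01 CPM in untreated replicates 1 and 2 and at 12.6 and 17.1 CPM in resistant replicates 1 and 2 (log2 ratio −1.19 ± 0.22, adjusted p = 0.00234). XRCC3, its partner in the smaller complex, stood at 39.4 and 28.2 CPM in the untreated and 20.4 and 20.04 CPM in the resistant libraries (log2 ratio −0.74 ± 0.21, adjusted p = 0.0192). Here the resistant libraries were nearly equal and the untreated ones differed more. XRCC2, a member of the larger complex, stood at 40.05 and 32.3 CPM in the untreated and 11.5 and 21.9 CPM in the resistant libraries (log2 ratio −1.11 ± 0.29, adjusted p = 0.0190). RAD54L, the ATP-driven motor that remodels DNA during strand exchange, stood at 37.96 and 38.3 CPM in the untreated and 15.5 and 20.5 CPM in the resistant libraries (log2 ratio −1.08 ± 0.20, adjusted p = 0.00256). Its untreated values were almost the same, and both resistant values were far below them. RAD54B, a related motor, stood at 16.3 and 16.00 CPM in the untreated and 6.52 and 9.27 CPM in the resistant libraries (log2 ratio −1.03 ± 0.26, adjusted p = 0.0111). Without untreated replicate 1 the calls of RAD51AP1, XRCC2, XRCC3 and RAD54B ended, at adjusted p = 0.149, 0.134, 0.226 and 0.0514, and XRCC3 had a log2 fold change of −0.46. RAD51AP1 also lost its call without untreated replicate 2 (adjusted p = 0.0939) and RAD54B without resistant replicate 1 (adjusted p = 0.0630). Without resistant replicate 1 the log2 fold changes of RAD51AP1 and XRCC2 shrank to −0.85 and −0.71, both still called.

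The BRCA1-PALB2-BRCA2 axis, which prepares trimmed DNA for strand exchange, split between its members. BRCA1 (ENSG00000012048, chromosome 17), a ubiquitin ligase subunit that promotes end trimming, stood at 60.98 and 62.5 CPM in untreated replicates 1 and 2 and at 16.9 and 36.8 CPM in resistant replicates 1 and 2 (log2 ratio −1.20 ± 0.34, adjusted p = 0.0366). The untreated values were nearly equal, and resistant replicate 2 kept more than double the level of resistant replicate 1. BARD1 (ENSG00000138376, chromosome 2), the obligate partner of BRCA1 in that ligase, stood at 19.3 and 19.2 CPM in untreated replicates 1 and 2 and at 18.9 and 25.8 CPM in resistant replicates 1 and 2 and was not called (log2 ratio 0.22 ± 0.21, adjusted p = 0.461). The 2 groups overlapped, and the sign of its fold change turned without resistant replicate 2 (−0.02). The ratio of BRCA1 to BARD1 CPM was 3.16 and 3.26 in the untreated and 0.894 and 1.43 in the resistant libraries, so the partners did not move in step in either resistant population. PALB2, the bridge between BRCA1 and BRCA2, stood at 36.3 and 32.9 CPM in the untreated and 16.1 and 17.3 CPM in the resistant libraries (log2 ratio −1.05 ± 0.19, adjusted p = 0.00218). BRIP1, a helicase bound by BRCA1, stood at 23.96 and 22.6 CPM in the untreated and 6.38 and 13.2 CPM in the resistant libraries (log2 ratio −1.25 ± 0.31, adjusted p = 0.0146). BRCA2 (ENSG00000139618, chromosome 13), which acts on trimmed DNA before strand exchange, stood at 23.8 and 19.1 CPM in untreated replicates 1 and 2 and at 6.24 and 14.5 CPM in resistant replicates 1 and 2 and did not pass (log2 ratio −1.05 ± 0.36, adjusted p = 0.0564). Its groups did not overlap, and its resistant libraries differed 2.32-fold, the widest such difference among the 35 genes. Without resistant replicate 2 it was called, with log2 fold change −1.78 (adjusted p = 9.35e-05), and 3 other tools or forms of the test, as well as a fit without a filter, called it too. BRCA1 was not called without untreated replicate 1 or 2 (adjusted p = 0.254 and 0.220), and its fold change in log2 went to −0.73 when resistant replicate 1 was left out and to −1.87 when resistant replicate 2 was. BRIP1 was not called without untreated replicate 1 (adjusted p = 0.0910) and had a log2 fold change of −0.81 without resistant replicate 1.

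Genes for sensing and trimming broken ends held the largest declines. EXO1 (ENSG00000174371, chromosome 1), an exonuclease for long-range trimming that also serves mismatch repair, stood at 34.9 and 30.8 CPM in untreated replicates 1 and 2 and at 5.49 and 11.3 CPM in resistant replicates 1 and 2 (log2 ratio −1.97 ± 0.32, adjusted p = 0.00218). This was the lowest fold change of the 35 genes, and the groups lay far apart. BLM (ENSG00000197299, chromosome 15), a RecQ helicase that trims ends and dissolves crossed DNA intermediates, stood at 26.3 and 24.8 CPM in untreated replicates 1 and 2 and at 5.49 and 9.33 CPM in resistant replicates 1 and 2 (log2 ratio −1.78 ± 0.27, adjusted p = 9.56e-04). WRN, another RecQ helicase, stood at 38.9 and 38.2 CPM in the untreated and 23.7 and 28.7 CPM in the resistant libraries (log2 ratio −0.56 ± 0.18, adjusted p = 0.0361), a smaller decline. The ratio of BLM to WRN CPM was 0.676 and 0.650 in the untreated and 0.232 and 0.324 in the resistant libraries. RBBP8, which encodes CtIP, the factor that starts trimming with the MRE11 nuclease, stood at 45.8 and 34.4 CPM in the untreated and 16.2 and 25.7 CPM in the resistant libraries (log2 ratio −0.93 ± 0.25, adjusted p = 0.0160). NBN, the subunit that ties the MRE11-RAD50 complex to ATM, stood at 25.3 and 25.9 CPM in the untreated and 12.5 and 16.4 CPM in the resistant libraries (log2 ratio −0.82 ± 0.21, adjusted p = 0.0128). RAD50, the tethering subunit of that complex, stood at 189 and 168 CPM in the untreated and 120.3 and 144 CPM in the resistant libraries and did not pass (log2 ratio −0.43 ± 0.17, adjusted p = 0.0673), although its groups did not overlap. Without untreated replicate 1 the calls of RBBP8, NBN and WRN ended (adjusted p = 0.124, 0.0570 and 0.149). NBN and WRN also lost theirs without resistant replicate 1 (adjusted p = 0.0824 and 0.227), and WRN without untreated replicate 2 (adjusted p = 0.0823).

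In the Fanconi pathway the ubiquitin targets fell and the core ligase complex was mixed. FANCD2 (ENSG00000144554, chromosome 3), which is clamped on DNA once ubiquitin is attached, stood at 36.5 and 44.9 CPM in untreated replicates 1 and 2 and at 14.7 and 18.8 CPM in resistant replicates 1 and 2 (log2 ratio −1.28 ± 0.21, adjusted p = 0.00127). FANCI, its partner in the clamp, stood at 78.3 and 78.99 CPM in untreated replicates 1 and 2 and at 32.3 and 46.01 CPM in resistant replicates 1 and 2 (log2 ratio −1.01 ± 0.19, adjusted p = 0.00285). Both resistant values lay below both untreated values in each gene, and no left-out library ended either call. Of the 8 core complex genes 3 fell, 0 rose and 5 did not pass, with a median log2 fold change of −0.41. The background over all tested genes was 17.4% lower and 16.6% higher. FANCA, a scaffold subunit, stood at 87.2 and 70.8 CPM in the untreated and 41.3 and 46.6 CPM in the resistant libraries (log2 ratio −0.85 ± 0.17, adjusted p = 0.00405). FANCM, the translocase that anchors the complex on DNA, stood at 16.9 and 12.6 CPM in the untreated and 4.35 and 8.53 CPM in the resistant libraries (log2 ratio −1.19 ± 0.33, adjusted p = 0.0208). FANCF, an adaptor subunit, stood at 7.85 and 8.33 CPM in the untreated and 4.38 and 4.56 CPM in the resistant libraries (log2 ratio −0.86 ± 0.29, adjusted p = 0.0411). FANCL, the catalytic ubiquitin ligase subunit, was not lower: it stood at 20.5 and 23.1 CPM in the untreated and 21.6 and 29.8 CPM in the resistant libraries and was not called (log2 ratio 0.24 ± 0.21, adjusted p = 0.420), with a sign that turned without resistant replicate 2 (−0.01). FANCB, which binds FANCL, stood at 10.7 and 8.79 CPM in the untreated and 4.69 and 8.85 CPM in the resistant libraries (log2 ratio −0.52 ± 0.33, adjusted p = 0.248), and was called without resistant replicate 2 (log2 fold change −1.06, adjusted p = 0.0389). FANCC stood at 29.9 and 30.9 CPM in the untreated and 28.8 and 29.96 CPM in the resistant libraries, and was not called. The 4 values lay close together. Its log2 fold change was −0.05 (SE 0.17). FANCE, a subunit that contacts FANCD2, stood at 20.4 and 18.99 CPM in the untreated and 19.3 and 16.4 CPM in the resistant libraries and was not called (log2 ratio −0.14 ± 0.20, adjusted p = 0.624). FANCG, a subunit that binds FANCA, stood at 31.6 and 29.5 CPM in the untreated and 22.1 and 27.4 CPM in the resistant libraries and was not called either (log2 ratio −0.31 ± 0.19, adjusted p = 0.242), with no overlap between the groups. The call of FANCF ended in each of the 4 fits that left out 1 library, with adjusted p between 0.0991 and 0.130, and also with upper-quartile scaling. FANCM was not called without untreated replicate 1 (adjusted p = 0.139) or resistant replicate 1 (log2 fold change −0.78, adjusted p = 0.0757).

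Of the 6 checkpoint genes 2 fell, 1 rose and 3 did not pass, beside 17.4% lower and 16.6% higher among all tested genes, so 1 riser in 6 is near the background. ATRIP (ENSG00000164053, chromosome 3), the partner that brings ATR to single-stranded DNA, stood at 15.2 and 12.4 CPM in untreated replicates 1 and 2 and at 6.38 and 6.75 CPM in resistant replicates 1 and 2 (log2 ratio −1.07 ± 0.25, adjusted p = 0.00897). ATR itself (ENSG00000175054, chromosome 3) stood at 54.8 and 48.1 CPM in untreated replicates 1 and 2 and at 47.9 and 54.8 CPM in resistant replicates 1 and 2 (log2 ratio −0.00 ± 0.17, adjusted p = 0.989). Its groups overlapped, and the sign of its fold change varied between scalings. The ratio of ATR to ATRIP CPM therefore went from 3.60 and 3.88 in the untreated to 7.497 and 8.11 in the resistant libraries. TOPBP1, which switches on ATR, stood at 144 and 121 CPM in the untreated and 72.8 and 92.4 CPM in the resistant libraries (log2 ratio −0.68 ± 0.18, adjusted p = 0.0139). CHEK1, the kinase that ATR activates, stood at 40.6 and 37.5 CPM in the untreated and 31.6 and 41.95 CPM in the resistant libraries and was not called (log2 ratio −0.09 ± 0.19, adjusted p = 0.755), and its sign turned without resistant replicate 1 (0.12). CHEK2 (ENSG00000183765, chromosome 22), the kinase that ATM activates, was the riser, at 32.5 and 36.3 CPM in untreated replicates 1 and 2 and at 44.8 and 55.5 CPM in resistant replicates 1 and 2 (log2 ratio 0.54 ± 0.18, adjusted p = 0.0367). ATM (ENSG00000149311, chromosome 11) stood at 68.4 and 88.6 CPM in untreated replicates 1 and 2 and at 96.6 and 134 CPM in resistant replicates 1 and 2 and narrowly missed the threshold (log2 ratio 0.56 ± 0.20, adjusted p = 0.0534). The groups did not overlap for either gene. CHEK2 was not called without untreated replicate 1, untreated replicate 2 or resistant replicate 2 (adjusted p = 0.169, 0.0603 and 0.193). ATM was called without untreated replicate 2 (log2 fold change 0.75, adjusted p = 0.0301) or resistant replicate 1 (log2 fold change 0.79, adjusted p = 0.00439), and under RLE scaling or another filter. ATRIP was not called without untreated replicate 1 (adjusted p = 0.0810), nor TOPBP1 without untreated or resistant replicate 1 (adjusted p = 0.107 and 0.120).

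The other 2 sensors both fell, beside 17.4% called lower among all tested genes. PARP1 (ENSG00000143799, chromosome 1), which marks DNA breaks with poly(ADP-ribose), stood at 444 and 425 CPM in untreated replicates 1 and 2 and at 207 and 262 CPM in resistant replicates 1 and 2 (log2 ratio −0.89 ± 0.17, adjusted p = 0.00351). MSH6 (ENSG00000116062, chromosome 2), which recognises mispaired bases, stood at 187 and 163 CPM in untreated replicates 1 and 2 and at 109.6 and 119 CPM in resistant replicates 1 and 2 (log2 ratio −0.61 ± 0.16, adjusted p = 0.0147). Untreated and resistant values were well apart in both genes. The call of MSH6 ended without untreated replicate 1 (adjusted p = 0.119) or resistant replicate 1 (adjusted p = 0.103).

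Levels of different genes were compared per kilobase of exon. PARP1 had the highest level in both groups, 102 CPM per kilobase in untreated and 54.97 in resistant cells. MSH6, TOPBP1 and RAD50 followed in untreated cells, at 22.4, 21.5 and 21.5 CPM per kilobase. BRCA2 was lowest in both groups, at 1.79 and 0.864 CPM per kilobase, next to FANCM, at 2.000 and 0.872. In the order of levels CHEK2 moved from place 7 to place 2 and ATM from 27 to 13. Places are relative to the other repair genes, most of which fell, so genes with little change moved up too. FANCE went from place 20 to 12, CHEK1 from 18 to 10 and ATR from 22 to 15. EXO1 moved the other way, from place 16 to place 26. These levels use merged exon lengths from another genome build than the one named for the counts, and a long untranslated end that the cells do not use lowers them.

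The 2 resistant libraries were not alike in these genes. Resistant replicate 2 lay above resistant replicate 1 in 33 of the 35 genes, with XRCC3 and FANCE as the exceptions, where this held for 50.7% of all tested genes. The median log2 ratio of resistant replicate 2 over 1 was 0.40 for the repair genes and 0.01 for all tested genes. In the untreated pair the repair genes leaned to the first replicate: untreated replicate 2 was above replicate 1 in only 10 of 35, with a median log2 ratio of −0.10. Untreated replicate 2 was above replicate 1 in 8120 of all 16090 tested genes. In 10 of the 35 genes (28.6%) the resistant libraries differed by at least 1.5-fold and by more than the untreated ones, which held for 14.5% of all tested genes. These were BRCA2, BRCA1, RAD51AP1, BRIP1, EXO1, FANCM, XRCC2, FANCB, BLM and RBBP8, and each was higher in resistant replicate 2. BRCA1 differed 2.17-fold and RAD51AP1 2.12-fold between the resistant libraries, against 1.02-fold and 1.07-fold between the untreated ones. FANCD2, PALB2 and FANCF differed less between the resistant libraries (1.28-fold, 1.07-fold and 1.04-fold). Genes of the S phase, in which DNA is copied, moved with them: 23 of 27 were higher in resistant replicate 2, with a median log2 ratio of 0.49, and 1 of 27 was higher in untreated replicate 2. Of 18 G2 and mitosis genes 14 were higher in resistant replicate 2, with a median log2 ratio of 0.15, and 2 were higher in untreated replicate 2. With 1 library per population there is no test of this difference. The part of S phase genes, of G2 and mitosis genes or of the libraries themselves in it was not tested. Transcript length also went with the ratio of replicate 2 over 1. In the resistant pair its median in log2 was 0.08 for tested protein-coding genes with at least 5000 exon bases and −0.05 for shorter ones. In the untreated pair it was 0.06 and −0.05. For the repair genes of those lengths it was 0.35 and 0.40 in the resistant pair and −0.09 and −0.10 in the untreated pair. The part of transcript length was not tested.

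**Figure D3:**
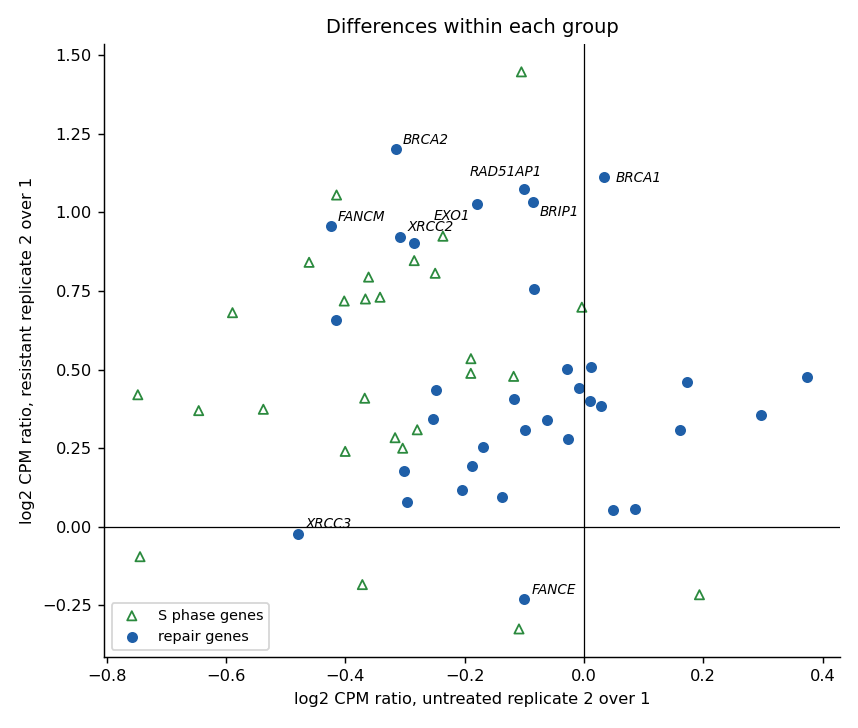
Log2 CPM ratio of replicate 2 over replicate 1, in the untreated pair (horizontal) and the resistant pair (vertical), for the repair genes (blue points) and tested S phase genes (green triangles). In the untreated pair 10 of 35 repair genes lie above 0, whereas 33 of 35 lie above 0 in the resistant pair, BRCA2 highest among them.

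Other repair pathways were read by lists of genes that hold none of the 35. Beside the background of 17.4% lower and 16.6% higher, 11 of 27 other homologous recombination genes fell and 2 rose, with a median log2 fold change of −0.50. RMI2, a partner of BLM, stood at 24.7 and 23.7 CPM in the untreated and 4.93 and 7.05 CPM in the resistant libraries (log2 ratio −2.01 ± 0.25, adjusted p = 2.93e-04), and MUS81, a nuclease that cuts branched DNA, rose (log2 ratio 0.79 ± 0.17, adjusted p = 0.00584). SEM1, a small partner of BRCA2, did not pass (log2 ratio 0.08 ± 0.15, adjusted p = 0.710). Of 19 further Fanconi and crosslink repair genes 7 fell and 1 rose (median −0.31): FAAP100, a partner of FANCB and FANCL, fell (log2 ratio −0.88 ± 0.17, adjusted p = 0.00332) and REV3L, the catalytic part of a bypass polymerase, rose (log2 ratio 0.50 ± 0.17, adjusted p = 0.0479). ERCC1, part of a crosslink-cutting nuclease, did not pass (log2 ratio −0.38 ± 0.17, adjusted p = 0.116). Break-site signalling genes counted 7 lower and 1 higher of 14 (median −0.36), led by BRCC3, a deubiquitinase in a BRCA1 complex (log2 ratio −1.12 ± 0.19, adjusted p = 0.00192), and RNF168, a ubiquitin ligase that marks chromatin at breaks (log2 ratio 0.76 ± 0.19, adjusted p = 0.0112). RIF1, which shields ends from trimming, did not pass (log2 ratio −0.30 ± 0.17, adjusted p = 0.205).

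Among 18 other checkpoint genes 8 fell and 3 rose (median −0.49). TTI1, which stabilises ATM and ATR kinases, fell (log2 ratio −1.59 ± 0.17, adjusted p = 1.22e-04). WEE1, the kinase that holds back entry into mitosis, stood at 38.5 and 37.8 CPM in the untreated and 101 and 98.00 CPM in the resistant libraries (log2 ratio 1.38 ± 0.15, adjusted p = 1.56e-04), a rise in both resistant populations. RPA1, a subunit of the protein that coats single-stranded DNA, did not pass (log2 ratio −0.27 ± 0.16, adjusted p = 0.209). Of 6 other mismatch repair genes 3 fell, and PMS2 did not pass (log2 ratio 0.25 ± 0.17, adjusted p = 0.280). End joining, the pathway that ligates ends without a template, had 3 of 11 lower, led by XRCC4 (log2 ratio −1.46 ± 0.21, adjusted p = 6.87e-04), a chromosome 5 gene, and PRKDC, its large kinase, did not pass (log2 ratio −0.33 ± 0.19, adjusted p = 0.196).

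Base excision and single-strand break repair had 7 lower and 1 higher of 23 (median −0.18), with LIG1, the replicative DNA ligase, lowest in adjusted p among the fallers (log2 ratio −1.56 ± 0.21, adjusted p = 5.11e-04). Its riser was the glycosylase gene MBD4 (log2 ratio 0.46 ± 0.16, adjusted p = 0.0488), and LIG3, another ligase, did not pass (log2 ratio 0.23 ± 0.17, adjusted p = 0.310). In nucleotide excision repair 3 of 18 fell, a share of 16.7%, close to the background. ERCC8, which acts in transcribed genes, was one of the 3 (log2 ratio −1.25 ± 0.25, adjusted p = 0.00363), and DDB1 did not pass (log2 ratio 0.27 ± 0.16, adjusted p = 0.217). S phase genes had 22 of 27 lower with a median of −1.21, led by CDC6, which licenses replication origins (log2 ratio −2.12 ± 0.24, adjusted p = 2.93e-04), while RRM1 did not pass (log2 ratio −0.47 ± 0.19, adjusted p = 0.0726). G2 and mitosis genes had 7 of 18 lower with a median of −0.45, led by the spindle motor gene KIF11 (log2 ratio −1.12 ± 0.20, adjusted p = 0.00270), while TOP2A did not pass (log2 ratio −0.36 ± 0.16, adjusted p = 0.105). The summed level of S phase genes was 3808 and 2966 CPM in the untreated libraries and 1234 and 1687 CPM in the resistant ones, and their part in the repair gene differences was not tested. In each fit with 1 library left out, the share of all tested genes called lower was also smaller, as given above. The counts of fallers that follow are therefore not to be read beside the share of the full fit. Without untreated replicate 1 the number of fallers was 5 for other homologous recombination, 3 for further Fanconi, 3 for break-site signalling, 1 for end joining, 4 for base excision, 1 for nucleotide excision and 3 for G2 and mitosis genes. Without resistant replicate 1 it was 5 for other homologous recombination, 4 for further Fanconi, 3 for break-site signalling and 1 for other mismatch repair genes, and without untreated replicate 2 it was 3 for break-site signalling genes. The single riser of base excision repair was lost (0 higher) in each of the 4 fits with a library left out, and also with no filter, the newer quasi-likelihood form, the replicate block, limma-voom and DESeq2. That of the further Fanconi genes was lost without untreated replicate 1, untreated replicate 2 or resistant replicate 2, and with the replicate block and limma-voom, and that of break-site signalling without untreated replicate 2. Other homologous recombination had 1 riser in place of 2 without untreated replicate 1, untreated replicate 2 or resistant replicate 1.

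**Figure D4:**
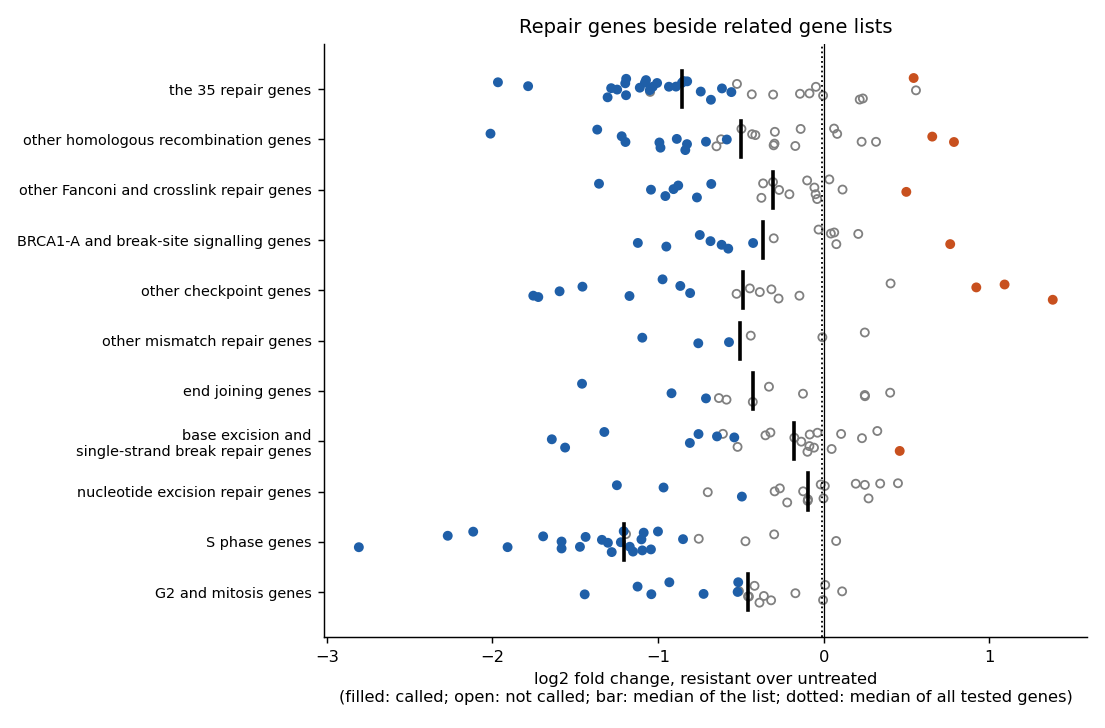
Log2 fold change of every tested gene in the 35 repair genes and in 10 related lists. Filled points were called (blue lower, orange higher), open points were not, and the black bar is the median of each list: −0.86 for the repair genes, −1.21 for S phase genes and −0.10 for nucleotide excision repair genes.

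The median log2 fold change of tested protein-coding genes was 0.46 on chromosome 22 and −0.41 on chromosome 5, so each gene was set beside the 10 nearest tested protein-coding genes on either side in gene order (18 in all for FANCA, near a chromosome end). The repair gene lay below the median of its neighbours in 31 of 35 cases, and the median difference was −0.85 in log2. The same count was not taken over all tested genes. As 31 of the 35 had a negative fold change, it largely restates their fall. CHEK2 on chromosome 22 had a log2 fold change of 0.54 where its neighbours had a median of 0.53. RAD50 on chromosome 5 had one of −0.43 where its neighbours had −0.36. In both cases the gene and its neighbours had similar values. ATM had 0.56, beside 0.14 for its neighbours and 0.42 for tested protein-coding genes of chromosome 11 as a whole. PALB2 on chromosome 16 lay in a lowered stretch, with 12 of 20 neighbours called lower and a neighbour median of −0.60, beside its own −1.05. BLM, FANCF and FANCA were low among neighbours of which 0 were called lower, with neighbour medians of 0.08, 0.33 and 0.26. The log2 difference between EXO1 and its neighbours' median was −1.62. The part of chromosome copy number in these values was not tested.

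**Figure D5:**
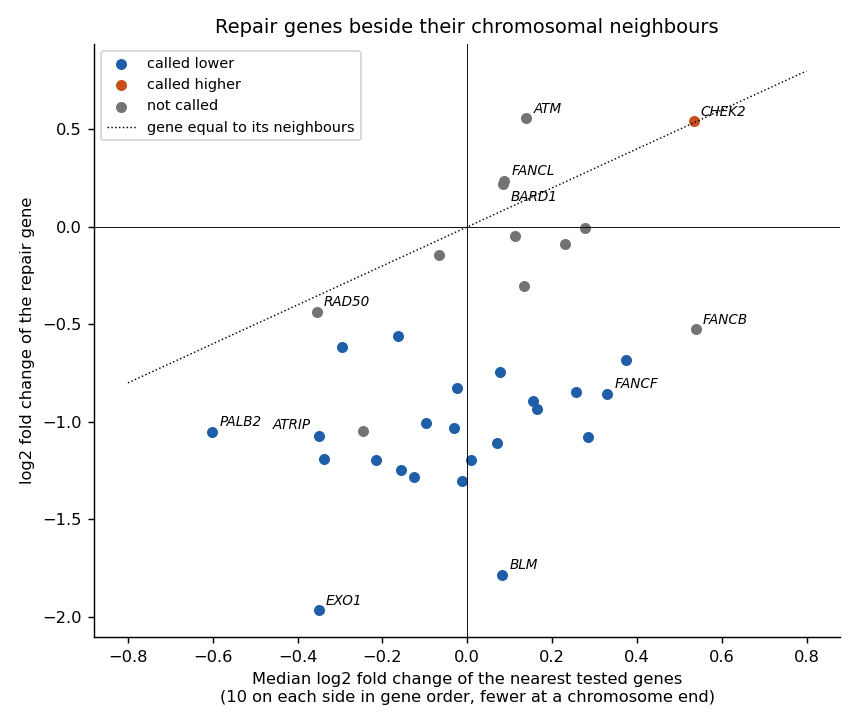
Log2 fold change of each repair gene (vertical) against the median log2 fold change of its nearest tested protein-coding genes (horizontal). Points under the dotted line are repair genes lower than their neighbours, 31 of 35; CHEK2 and RAD50 lie close to the line.

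Some values are uncertain because exons are shared with another gene and the strand setting of the counting is not given. At least 5% of exon bases were shared with a gene listed in the count tables in 8 of the 35 genes: ATRIP with TREX1, XRCC3 with KLC1, RAD54L with LRRC41, RAD54B with FSBP, FANCA with ZNF276, FANCL with VRK2, FANCI with POLG and MSH6 with FBXO11. In 6 of the 8 the other gene had a fold change of the opposite sign. XRCC3 shared 45.3% of its exon bases with KLC1, whose log2 fold change was 0.65, and FANCL shared 26.6% with VRK2, at 0.89. RAD54B shared 63.3% with FSBP on the same strand, a gene under 2 CPM in every library. RAD50 shared 90.6% of its exon bases with AC116366.3 on the same strand, a gene model of the annotation used here that was not matched in the count tables.

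Since most of the genes were lower together, their RefSeq promoters (assembly GRCh38.p14, 250 bases before to 50 after the start) were searched on both strands for E2F sites, the docking letters of factors that switch on S phase genes. The letters were TTTCGCGC, TTTGGCGC and TTCCCGCC. A promoter was listed for 31 of the 35 genes, and NBN, WRN, RAD54B and FANCI had none. Of these 31 genes 12 held a match (38.7%), beside 8.63% of 10344 tested protein-coding genes and 4.24% of all 35116 promoters. Of the 12, 10 fell and FANCC and FANCL did not pass, and of the 19 without a match 9 fell. Over all tested protein-coding genes 27.5% of those with a match and 19.5% of those without were called lower. A gene with several listed starts had more letters searched, and a match is a description of letters, not of binding. The match nearest the start is shown for each of the 12 genes, in capitals within 30 bases, 5′ to 3′ on the gene's strand, so that the letters of genes that fell can be set beside those of FANCC and FANCL. The complement of TTCCCGCC reads GGCGGGAA, and that of TTTCGCGC reads GCGCGAAA.
EXO1 (chr1:241848197-241848226, plus strand, match first base at transcript position 5): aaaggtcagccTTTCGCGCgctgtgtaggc
BLM (chr15:90717337-90717366, plus strand, match first base at transcript position 3): ggcaagcttccGGCGGGAAgtgagccaggg
RAD51AP1 (chr12:4538857-4538886, plus strand, match last base 15 before the start): gtctggttttgGGCGGGAAttgaaaccgcc
FANCD2 (chr3:10026423-10026452, plus strand, match first base at transcript position 5): gcgtcgggcctGGCGGGAAagtcgaaaact
BRIP1 (chr17:61863509-61863538, minus strand, match first base at transcript position 2): agggggcgggaGGCGGGAAttcgtctcggg
XRCC2 (chr7:152676103-152676132, minus strand, match first base at transcript position 21): atggcgttggtGGCGGGAAagttgagtctc
RAD54L (chr1:46247628-46247657, plus strand, match last base 42 before the start): gcgcagcactaTTCCCGCCtcttccttggg
XRCC3 (chr14:103715436-103715465, minus strand, match first base at transcript position 5): aggagcaggacGGCGGGAAgaggagtgcgg
TOPBP1 (chr3:133661930-133661959, minus strand, match first base at transcript position 1): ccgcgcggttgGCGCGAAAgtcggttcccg
MSH6 (chr2:47783138-47783167, plus strand, match first base at transcript position 5): tccccccagatTTCCCGCCagcaggagccg
FANCC (chr9:95317351-95317380, minus strand, match last base 108 before the start): ggcgagaggggTTCCCGCCggcgcagggct
FANCL (chr2:58241406-58241435, minus strand, match last base 92 before the start): cctccaggatcTTCCCGCCaaggctggggt

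In 8 of the 10 genes that fell the nearest match began within the first 21 transcribed bases, and in RAD51AP1 and RAD54L it lay upstream, as it did in FANCC and FANCL. The position of matches was not counted over all promoters. These places therefore describe the printed genes only, and a link to the calls was not tested. EXO1 and TOPBP1 carried the form with TTTCGCGC nearest the start, and the others carried TTCCCGCC. The CCAAT box, bound by NF-Y at many cell cycle genes, was found in 15 of the 31 promoters (48.4%), beside 42.9% of tested protein-coding genes, and 12 of these 15 genes fell, as did 7 of the 16 without it. Over all tested protein-coding genes 20.9% of those with a CCAAT box and 19.7% of those without were called lower. The CHR element TTTGAA, found at genes of late cell cycle phases, was in 3 of the 31 (9.68%), beside 13.5% of tested protein-coding genes. These 3 were ATM, BRIP1 and FANCC. The 250 bases before the RAD54L start are printed because they hold both an E2F match and a CCAAT box (on the other strand, as ATTGG) close together, in capitals.
RAD54L (chr1:46247438-46247687, plus strand): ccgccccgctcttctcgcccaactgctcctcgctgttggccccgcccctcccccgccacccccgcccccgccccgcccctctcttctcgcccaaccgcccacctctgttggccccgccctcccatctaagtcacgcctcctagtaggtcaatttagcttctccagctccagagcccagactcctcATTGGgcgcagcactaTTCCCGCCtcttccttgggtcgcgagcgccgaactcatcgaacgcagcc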

How the data were processed

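Polyadenylated RNA was sequenced in 4 libraries. Per the file headers, the authors deposited 1 unscaled expected count for each gene. The submitters' processing notes list STAR 2.7.2b, RSEM 1.3.1 and GRCh37, and the strand setting and annotation are not given in the sources used here. Groups came from sample titles. Expected counts were rounded to whole numbers. edgeR 4.0.16 (R 4.3.3) was run over all genes kept by filterByExpr, with TMM scaling, robust dispersions and the quasi-likelihood F-test, with Benjamini-Hochberg adjustment over these genes and calls made below 0.05. The SE is the absolute log2 fold change divided by the square root of F. Symbols came from a gene name table, and gene order, exon lengths and overlaps from GENCODE 29, a GRCh38 annotation, without coordinates.

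The 35 genes, their roles, the related lists (in which UHRF1 had no matching ID) and the motifs were chosen with earlier results of these data known. From each related list the text names the gene with the smallest adjusted p in each direction and the most abundant one not called; 1 gene that this rule picks is not reported here. The test was checked on simulated counts. Alternatives were other scalings (RLE, upper quartile), filters (none, and 1 CPM in 2 libraries), a replicate block, each library left out, DESeq2 1.42.0, limma-voom 3.58.1, edgeR's newer quasi-likelihood form and a threshold of 0.01. Log ratios between replicates used 0.1 CPM as pseudocount. Floors of 3 counts cover counting error only.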

Additional observations from a re-analysis of the deposited data

How the results depend on the processing

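The fall of the repair genes held its direction in every alternative run: their median log2 fold change lay between −0.86 and −0.82 under other scalings, filters, tests and the replicate block, and between −1.06 and −0.71 with 1 library left out. The number of repair genes called lower was 22 to 24 under RLE or upper-quartile scaling, both filters, DESeq2, limma-voom and the newer quasi-likelihood form. The number of all genes called was 2832 to 5041 with 1 library left out, and of repair genes 9 to 24 lower and 0 to 2 higher. At a threshold of 0.01 it was 2832 of all genes, 10 repair genes lower and 0 higher. Repair genes called higher were 2 in place of 1 under RLE scaling, no filter, the filter of 1 CPM, the replicate block and DESeq2, ATM being the second. The log2 fold change of ATR, −0.00 in the fit reported, was 0.0088 with RLE scaling and with DESeq2, 0.024 with upper-quartile scaling and 0.028 with the filter of 1 CPM. With 1 library left out it ranged from −0.11 to 0.12 for ATR, from −0.31 to 0.12 for CHEK1, from −0.023 to 0.44 for BARD1 and from −0.015 to 0.47 for FANCL. The causes were not tested.

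With a replicate block 22 repair genes were called lower and 2 higher, and 5275 of all genes. FANCF lost its call (adjusted p = 0.0531) and ATM gained one (adjusted p = 0.0213). The numbers were not taken as pairs: deviations of same-numbered libraries from their group means had a correlation of −0.06 across genes, and no label says that a number marks a shared culture. With 2 libraries a group, genes that did not pass are not shown to be unchanged. FANCF and FANCB rest on the fewest counts.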
